A study of Mus musculus with 9 samples.

Results

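The genes described here mark Kupffer cells, the resident macrophages that line the sinusoids of the liver. They are the 10 genes Clec4f, Timd4, Marco, Folr2, Vsig4, Cd163, Cd5l, Clec1b, Adgre1 and Csf1r, taken by symbol from 34745 genes in the deposited table. The rule uses no measured value, although the genes were chosen with earlier results of these data known. All 10 were present and passed the filter on low counts. Liver mRNA was sequenced in 9 libraries from male C57BL/6 mice, 6 to 8 weeks old, in 3 groups of 3. The Ctrl livers are the controls. The D-gal-LPS livers had acute injury induced by D-gal and LPS, which in this model usually stand for D-galactosamine, an agent that sensitises hepatocytes, and lipopolysaccharide, the bacterial endotoxin. The WZB-D-gal-LPS livers had the same injury after pretreatment with WZB, a name that the labels do not expand and that the series' design text places among GLUT1 inhibitors. The mice carried no named allele or transgene. The sources used here give no doses, times or control agent. Neither do they say that each replicate is its own mouse, so a p-value measures the spread of these libraries, which may be technical.

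Kupffer cells settle in the liver before birth and are kept alive by signals through the receptor CSF1R. Neighbouring endothelial and stellate cells supply Notch, TGF-beta and BMP signals that hold their identity. They clear bacteria, dying cells, old red cells and complement-coated particles from portal blood, and in mice endotoxin can deplete some of them while blood monocytes enter the tissue. In mouse liver Clec4f and Timd4 mark the resident cells most strictly. Marco, Folr2, Adgre1 and Csf1r are also used by other macrophages and monocytes, and Clec1b by platelets. In whole tissue, fewer cells of a type and less RNA per cell cannot be told apart.

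The labelled tissue was checked by its markers. The 8 hepatocyte markers summed to between 83010 and 142200 CPM (counts per 1000000, scaled by TMM factors) in every library, against 107 to 443 CPM for the sum of the 10 Kupffer genes. Library totals were 15.1 to 18.1 in units of 1000000 counts. Markers of neutrophils and monocytes stood higher in the injured groups. The neutrophil list summed to 5.60 to 6.21 CPM in Ctrl, 356 to 384 in D-gal-LPS and 250 to 276 in WZB-D-gal-LPS, and the monocyte list to 13.1 to 19.3, 310 to 323 and 169 to 192 CPM. Of 8 hepatocyte markers, 2 rose and 1 fell with injury and 7 rose with WZB (median log2 fold change -0.11 and 0.43).

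The bases upstream of 4 start sites are printed from RefSeq (GRCm38.p6), 5′ to 3′ on the gene's strand. The genes are 1 from each of the 4 patterns of calls described further below. These are Clec4f and Timd4, which rose with injury and fell with WZB, Marco, with no called fall, and Cd163, with no called rise. Capitals mark matches, on either strand, to TGCTGA (a core of the sites of MAF factors), TGGGAA (a core bound by RBPJ, the Notch effector) and AGGTCA (a core bound by nuclear receptors such as LXR). For Clec4f, the last 71 bases before the RefSeq start lie inside the deposited gene model and are left out.
Clec4f, chr6:83656188-83656366, minus strand: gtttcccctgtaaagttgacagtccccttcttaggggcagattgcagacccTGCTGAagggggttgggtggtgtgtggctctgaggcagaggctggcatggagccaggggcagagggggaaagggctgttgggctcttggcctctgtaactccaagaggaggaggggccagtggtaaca
Timd4, chr11:46810549-46810798, plus strand: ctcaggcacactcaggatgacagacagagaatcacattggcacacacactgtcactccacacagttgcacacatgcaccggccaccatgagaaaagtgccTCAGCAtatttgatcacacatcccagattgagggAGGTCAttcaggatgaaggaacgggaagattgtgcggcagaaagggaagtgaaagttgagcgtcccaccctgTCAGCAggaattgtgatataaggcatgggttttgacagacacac
Marco, chr1:120505025-120505274, minus strand: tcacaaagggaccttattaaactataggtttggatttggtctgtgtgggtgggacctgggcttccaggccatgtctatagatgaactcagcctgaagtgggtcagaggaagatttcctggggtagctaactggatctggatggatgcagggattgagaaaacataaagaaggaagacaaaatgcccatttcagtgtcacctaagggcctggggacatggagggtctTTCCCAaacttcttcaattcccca
Cd163, chr6:124304401-124304650, plus strand: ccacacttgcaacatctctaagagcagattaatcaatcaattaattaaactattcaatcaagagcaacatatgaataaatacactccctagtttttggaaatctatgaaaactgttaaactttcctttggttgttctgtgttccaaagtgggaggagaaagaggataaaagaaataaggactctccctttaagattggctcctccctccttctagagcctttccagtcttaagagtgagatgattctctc
Windows were examined for 8 of the 10 genes. None was examined for Adgre1 and Csf1r, so matches upstream of these genes were not tested. In the full 250 bases before the start, TGCTGA stood in 4 of 8 (Clec4f, Timd4, Folr2 and Cd5l), where 16.1% of 32851 promoters hold it. TGGGAA stood in Clec4f and Marco (21.6% of promoters) and AGGTCA in Clec4f and Timd4 (14.0%). AGGAAGT, a core bound by PU.1 and other ETS factors, and CACGTG, an E-box, had no match in these windows (7.69% and 6.02% of promoters). The 2 further matches of Clec4f lie in the stretch left out. No motif overlaps another in the printed stretches, and a match is a description of letters only.

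With injury, 9 of the 10 genes rose and Cd163 did not pass the test. Among all 13583 genes tested, 29.1% rose and 29.3% fell by the same rule, an adjusted p under 0.05 in edgeR's quasi-likelihood test, by Benjamini and Hochberg's method over the whole table. The median log2 fold change of the 10 was 1.41, against -0.03 over all genes tested. With WZB before injury, 9 of the 10 fell relative to injury alone and Marco did not pass the test, where 14.7% of all genes fell and 13.8% rose (median -1.15 against -0.02). Relative to controls, WZB-D-gal-LPS livers had 6 members higher and Cd163 lower, where 32.6% of all genes were higher and 28.0% lower (median 0.75 against 0.07). Libraries of the compared groups did not overlap for the same 9, 9 and 7 members. Of all genes, 32.4% had every injured library above every control and 33.1% below. With WZB against injury the shares were 21.3% above and 24.0% below, and with WZB against controls 35.0% and 30.9%. The comparisons share libraries, so their values are set side by side and not counted as separate support.

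**Figure D1:**
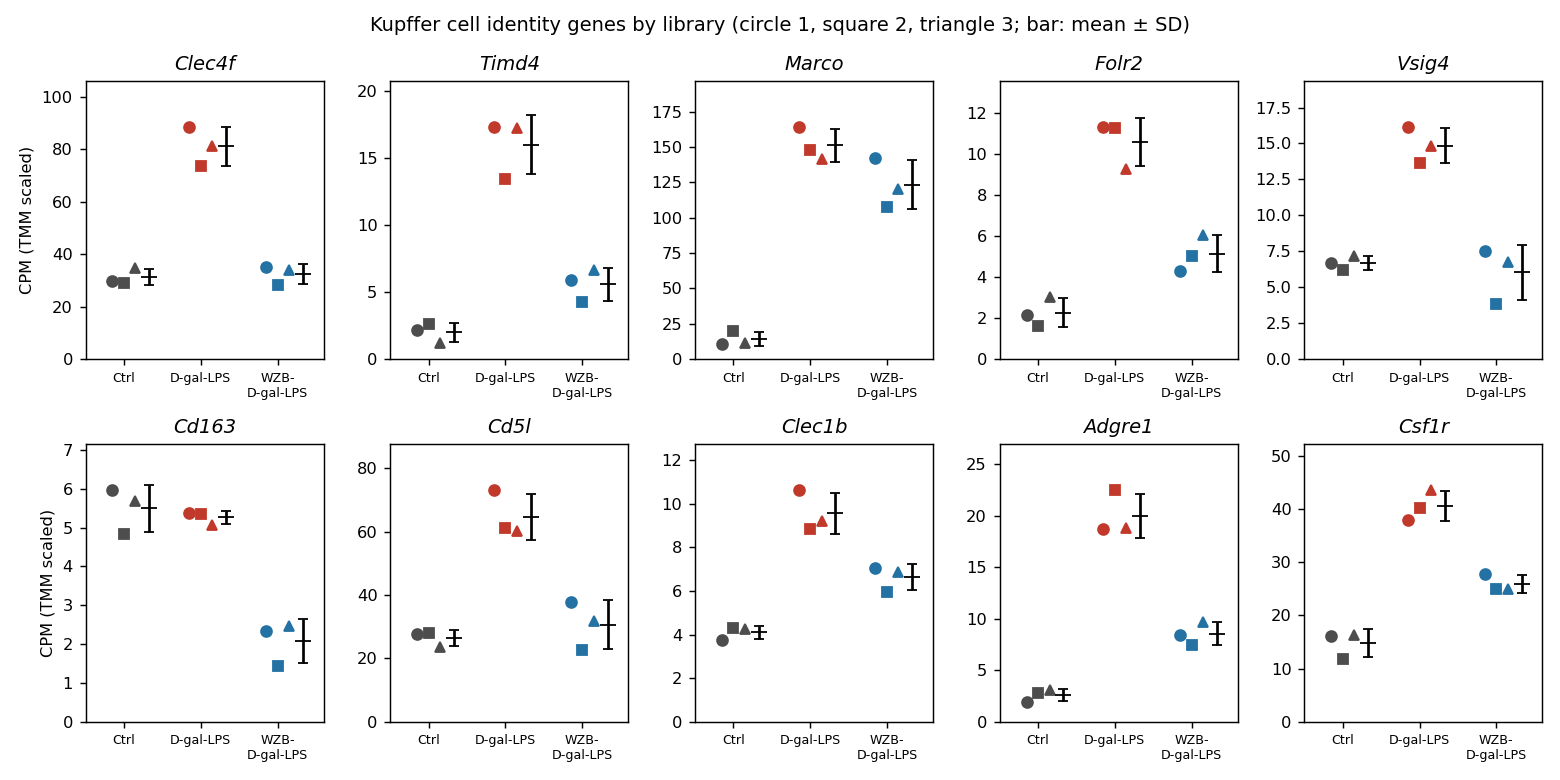
Each panel plots 1 gene, with its TMM-scaled CPM in the 9 libraries on an axis from 0 and the mean ± SD of each group (n = 3). The D-gal-LPS libraries stand above both other groups in 8 panels, while Marco stays high with WZB and Cd163 is lowest in the WZB libraries. The share of all genes with injured libraries above both other groups was not computed.

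Receptors that recognise what the cell takes up come first. Clec4f, a C-type lectin of mouse Kupffer cells that binds galactose-bearing glycans, had 29.9, 29.1 and 34.9 CPM in Ctrl, 88.4, 73.7 and 81.3 in D-gal-LPS and 35.2, 28.1 and 33.8 in WZB-D-gal-LPS. The injured libraries stood apart from all others, and the other 2 groups overlapped. Clec4f rose 2.59-fold with injury (log2 fold change 1.37 ± 0.12 SE, edgeR adjusted p = 3.02e-07) and fell with WZB (-1.32 ± 0.12, edgeR adjusted p = 7.70e-06). Against controls it stood at 0.05 (95% interval -0.20 to 0.30, edgeR adjusted p = 0.733).

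Timd4, the phosphatidylserine receptor TIM-4 with which resident macrophages bind dying cells, was scarce in controls, with 35, 43 and 23 counts. Counts were 299, 204 and 292 in D-gal-LPS, and in WZB-D-gal-LPS 83, 56 and 108. No library of one group overlapped another group. In CPM the means were 1.98 ± 0.713, 16.0 ± 2.20 and 5.58 ± 1.24 (SD, n = 3). Timd4 rose by 3.02 ± 0.26 log2 units with injury (edgeR adjusted p = 3.47e-07) and fell by 1.51 ± 0.24 with WZB (edgeR adjusted p = 0.000412). It was still 1.51 ± 0.27 above controls (edgeR adjusted p = 0.000264).

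Vsig4, the complement receptor CRIg that binds C3 fragments on blood-borne particles, had 6.70, 6.21 and 7.14 CPM in Ctrl and 16.1, 13.6 and 14.8 in D-gal-LPS. With WZB it had 7.50, 3.84 and 6.76 CPM, the second library being the lowest of all 9. The rise was 1.15 ± 0.20 (edgeR adjusted p = 0.000279) and the fall with WZB -1.29 ± 0.21 (edgeR adjusted p = 0.000489). Against controls the WZB libraries overlapped on both sides (-0.14, 95% interval -0.60 to 0.31, edgeR adjusted p = 0.575).

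Marco, a scavenger receptor for bacteria and particles that endotoxin is known to induce in macrophages, went from 10.8, 19.7 and 11.5 CPM in Ctrl to 164, 148 and 142 in D-gal-LPS. Its level with WZB was 142, 108 and 120 CPM, so both injured groups stood far above the controls and overlapped each other. The rise with injury was 10.8-fold (log2 3.43 ± 0.23, edgeR adjusted p = 2.93e-06). The difference made by WZB was -0.29 (95% interval -0.77 to 0.19, edgeR adjusted p = 0.344), an interval that leaves out the falls of Clec4f or Timd4 but not a smaller one. Against controls Marco stood 3.14 ± 0.23 higher with WZB (edgeR adjusted p = 5.16e-06).

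Cd163, the receptor that clears haemoglobin bound to haptoglobin, had 97, 80 and 109 counts in Ctrl and 93, 81 and 86 in D-gal-LPS. With WZB it had 33, 19 and 40 counts, below every library of the other groups. Its means were 5.49 ± 0.593, 5.26 ± 0.163 and 2.08 ± 0.560 CPM (SD, n = 3). The change with injury was -0.06 (95% interval -0.52 to 0.40, edgeR adjusted p = 0.820), an interval that holds none of the rises of the other 9. With WZB it fell by 1.33 ± 0.23 relative to injury (edgeR adjusted p = 0.000914) and by 1.39 ± 0.23 relative to controls (edgeR adjusted p = 0.000162).

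Folr2, the folate receptor beta of resident macrophages, had 35, 27 and 58 counts in Ctrl, 196, 171 and 157 in D-gal-LPS and 61, 67 and 99 with WZB. In CPM its groups did not overlap, with means of 2.27 ± 0.704, 10.6 ± 1.17 and 5.15 ± 0.887 (SD, n = 3). It rose by 2.21 ± 0.23 log2 units (edgeR adjusted p = 2.60e-06), fell by 1.04 ± 0.22 with WZB (edgeR adjusted p = 0.00328) and remained 1.17 ± 0.24 above controls (edgeR adjusted p = 0.000833).

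Clec1b, the podoplanin receptor CLEC-2, had 3.75, 4.28 and 4.27 CPM in Ctrl, 10.6, 8.83 and 9.21 in D-gal-LPS and 7.08, 5.95 and 6.88 with WZB. These groups did not overlap. It rose by 1.22 ± 0.17 (edgeR adjusted p = 3.11e-05) and was 0.69 ± 0.17 above controls with WZB (edgeR adjusted p = 0.00307). The fall with WZB was the smallest of the 9 (-0.52 ± 0.16, edgeR adjusted p = 0.0273). That call was lost without D-gal-LPS replicate 1 (adjusted p = 0.124) or 3 (0.0633), and without WZB-D-gal-LPS replicate 2 (0.0978) or 3 (0.0577). With upper quartile factors the adjusted p was 0.0515. Platelets also carry Clec1b, and 8 of 9 tested platelet and megakaryocyte markers rose with injury while 7 fell with WZB (medians 4.06 and -1.84). Their summed level was 4.86 to 7.92 CPM in Ctrl, 74.3 to 103 in D-gal-LPS and 26.5 to 33.7 with WZB. Ppbp, a platelet chemokine, rose by 4.68 ± 0.49 and fell by 2.13 ± 0.40, and Treml1 was too scarce to test. The part of platelet RNA in the Clec1b values was not tested.

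Cd5l, a secreted protein of tissue macrophages also called AIM and a known target of the nuclear receptor LXR, had 27.8, 27.9 and 23.6 CPM in Ctrl. It had 73.1, 61.0 and 60.1 CPM in D-gal-LPS and 37.8, 22.5 and 31.6 with WZB. The injured libraries stood above all others. Cd5l rose by 1.29 ± 0.16 (edgeR adjusted p = 2.82e-05) and fell by 1.08 ± 0.16 with WZB (edgeR adjusted p = 0.000495). Against controls the WZB libraries lay on both sides of the Ctrl range (0.22, 95% interval -0.14 to 0.57, edgeR adjusted p = 0.275). Without WZB-D-gal-LPS replicate 2 they were called higher (log2 0.39, adjusted p = 0.0220).

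The general macrophage receptors close the list. Adgre1, the gene of the surface antigen F4/80, had 1.91, 2.84 and 3.08 CPM in Ctrl, 18.7, 22.5 and 18.8 in D-gal-LPS and 8.42, 7.46 and 9.71 with WZB. Csf1r, the receptor for the growth factors CSF1 and IL-34, had 16.2, 11.9 and 16.4 CPM, then 38.0, 40.2 and 43.6, then 27.9, 25.02 and 24.9. For both genes the 3 groups did not overlap and the WZB group lay in the middle. Adgre1 rose 7.61-fold (log2 2.93 ± 0.19, edgeR adjusted p = 2.42e-08) and fell by 1.22 ± 0.18 with WZB (edgeR adjusted p = 0.000228). Csf1r rose 2.73-fold (1.45 ± 0.13, edgeR adjusted p = 6.25e-07) and fell by 0.65 ± 0.13 with WZB (edgeR adjusted p = 0.00233). With WZB they stood 1.70 ± 0.20 and 0.81 ± 0.13 above controls (edgeR adjusted p = 6.07e-06 and 0.000141).

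**Figure D2:**
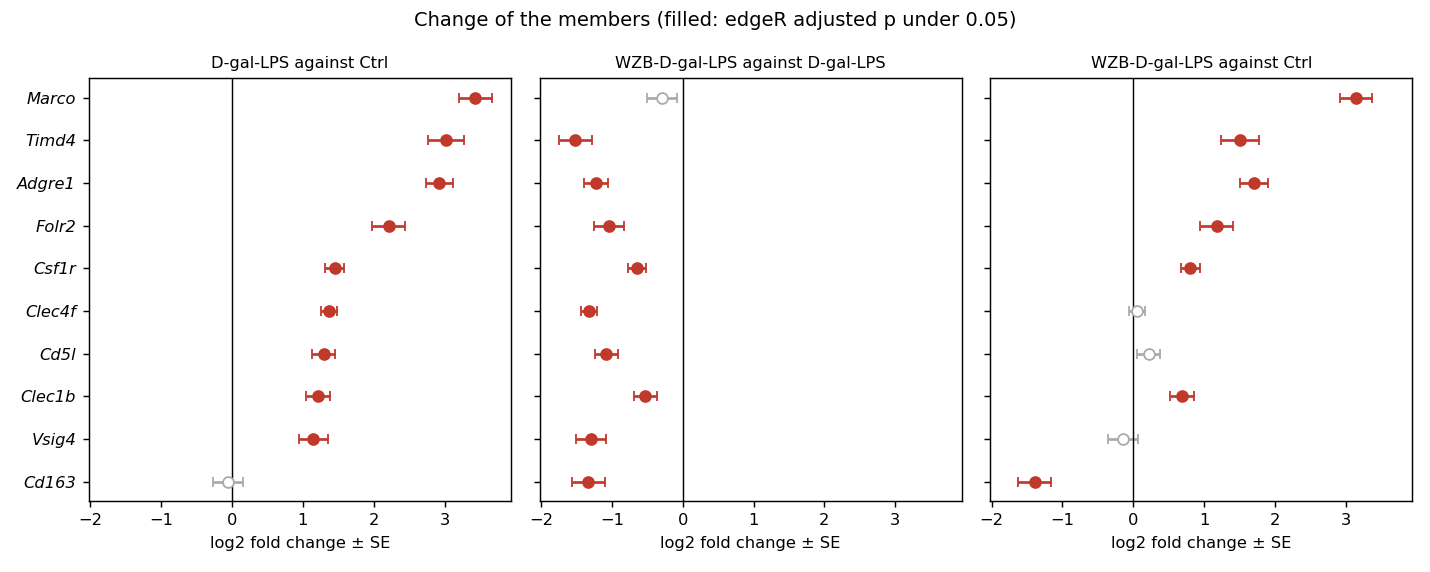
Log2 fold changes ± SE of the 10 genes are plotted for the 3 comparisons, ordered by the change with injury, with filled points for an edgeR adjusted p under 0.05. Against controls, the WZB livers spread from 3.14 for Marco to -1.39 for Cd163, with Clec4f, Cd5l and Vsig4 near 0.

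Marco carries much of the members' summed level. All 10 summed to a mean of 109.7 ± 2.04 CPM in Ctrl, 414 ± 25.1 in D-gal-LPS and 246 ± 33.8 with WZB (SD, n = 3). Without Marco the other 9 summed to 95.7 ± 4.11, 263 ± 14.7 and 123 ± 17.2 CPM. The WZB level over controls was then 1.29-fold instead of 2.25-fold, and that of injury 2.75-fold instead of 3.77-fold. The sum without Marco was added after values had been seen. By the tests of single genes the members fall into 4 patterns. Clec4f, Vsig4 and Cd5l rose with injury, fell with WZB and were not called against controls. Timd4, Folr2, Clec1b, Adgre1 and Csf1r rose and fell but stayed above controls. Marco rose and had no called fall, and Cd163 had no called rise and ended below controls. How many of all genes tested show each pattern was not computed. Within a group, 1 library often held the extreme value of many members. D-gal-LPS replicate 1 had the highest CPM of its group for 8 of 10 members, and WZB-D-gal-LPS replicate 2 had the lowest for 8 of 10. The matching shares over all genes tested were not computed, so whether these counts are particular to the members was not tested.

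Counts of a member per count of Clec4f in the same library do not depend on how libraries are scaled, and describe which members moved by more or less than Clec4f. Cd163 had 20.0, 16.6 and 16.3 counts per 100 counts of Clec4f in Ctrl. In D-gal-LPS it had 6.08, 7.25 and 6.25, and with WZB 6.63, 5.09 and 7.27. The ratio was thus lower in every injured library and overlapped between the injured groups. Marco showed the reverse, with 36.0, 67.6 and 32.99 per 100 in Ctrl, 185, 201 and 174 in D-gal-LPS and 404, 383 and 356 with WZB, and no overlap between any groups. Timd4 went from 7.20, 8.92 and 3.43 to 19.5, 18.3 and 21.2 and stood at 16.7, 15.01 and 19.6 with WZB. Adgre1 had 6.38, 9.75 and 8.81, then 21.1, 30.5 and 23.1, then 23.9, 26.5 and 28.7. For Timd4 and Adgre1 both injured groups lay above controls and overlapped each other. Clec1b had 12.6, 14.7 and 12.2 per 100 in Ctrl, 12.0, 12.0 and 11.3 in D-gal-LPS and 20.1, 21.2 and 20.4 with WZB, slightly lower with injury and higher with WZB, with no overlap between any groups. Csf1r had 54.3, 40.9 and 46.9, then 42.9, 54.6 and 53.7, then 79.1, 89.0 and 73.8, so the WZB libraries stood above both other groups, which overlapped. Folr2 lay higher in both injured groups than in Ctrl, and Vsig4 lay lower in D-gal-LPS than in Ctrl. Their other comparisons, and all those of Cd5l, overlapped. With 3 against 3 libraries the exact two-sided permutation p cannot go below 0.1. The smallest Benjamini-Hochberg adjusted p over the 27 ratios compared was 0.159, so no ratio passes a test on its own. All 27 share the counts of Clec4f and are not independent. How often the ratios of other genes to Clec4f separate the groups in this way was not computed. Clec4f was taken as the denominator, and these ratios added, after values had been seen.

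**Figure D3:**
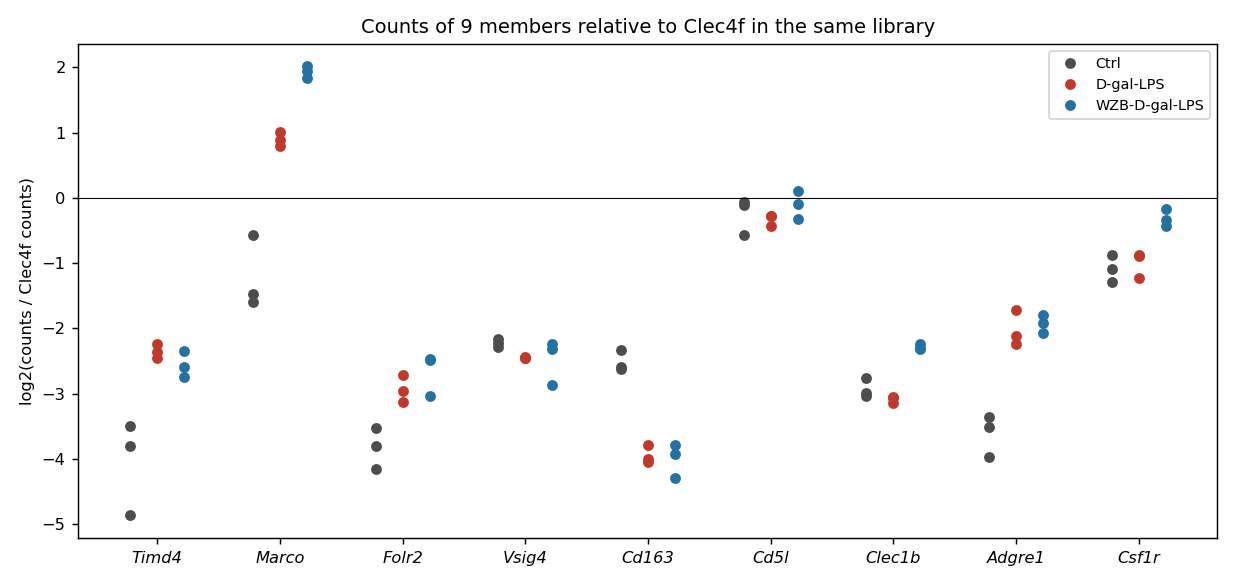
The log2 ratio of counts of each of 9 members to counts of Clec4f is plotted for every library, coloured by group. Marco climbs from group to group, and Cd163 sits lower in both injured groups than in Ctrl.

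Levels between genes can be compared per length from the deposited FPKM values. In Ctrl livers Cd5l (14.0 ± 1.47 FPKM, SD, n = 3) and Clec4f (12.0 ± 1.06) led and overlapped each other. Marco (7.50 ± 2.82) and Vsig4 (4.02 ± 0.207) followed, then Csf1r and Folr2, which overlapped. Timd4, Cd163, Adgre1 and Clec1b stood at 0.749 to 0.983 FPKM, each overlapping its neighbour. After D-gal-LPS Marco led (77.5 ± 6.81), above Cd5l (32.9 ± 4.17) and Clec4f (29.9 ± 3.38), and Cd163 was last (0.781 ± 0.0255). With WZB the same 3 led, at 55.3 ± 9.36, 13.6 ± 3.76 and 10.4 ± 1.49 FPKM, and Cd163 was last at 0.270 ± 0.0785.

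Other genes tied to Kupffer cells did not all follow the members. Of 10 such genes 7 rose and 3 fell with injury, and 3 rose and 3 fell with WZB (medians 1.08 and -0.07). Which liver cells made these transcripts was not tested, so their changes are not read as changes within Kupffer cells. Fcna, a ficolin of complement activation, rose by 2.66 ± 0.14 and fell by 0.85 ± 0.13 with WZB. Il18bp, which binds IL-18, rose by 1.95 ± 0.14 and fell by 0.67 ± 0.13, and the junction gene Cdh5, which endothelium also expresses, rose by 4.03 ± 0.13 and fell by 1.30 ± 0.11. Hpgd, the enzyme that inactivates prostaglandins, rose in both steps, from 46.1 to 63.5 CPM with injury (0.46 ± 0.12) and to 131.7 CPM with WZB (1.05 ± 0.12). The iron exporter Slc40a1 went the other way from the members, from 60.1 to 21.1 CPM with injury (-1.51 ± 0.13) and to 30.4 CPM with WZB (0.52 ± 0.13). Kcna2, a potassium channel, fell by 1.93 ± 0.46 with injury on low counts, 22, 24 and 36 in Ctrl and 6, 6 and 8 in D-gal-LPS. Pltp, a lipid transfer protein made by several cell types, fell by 0.63 ± 0.19 and rose by 0.68 ± 0.19 with WZB.

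Of 12 transcription factors of Kupffer cells and macrophages 8 rose and none fell with injury, and 7 fell with WZB (medians 0.95 and -0.51). Spic, a factor of iron-recycling macrophages that haem induces, rose from 3.14 to 80.8 CPM (4.69 ± 0.13) and fell by 1.21 ± 0.11. Spi1, the gene of PU.1, rose by 3.53 ± 0.15, and Zeb2, which helps maintain Kupffer identity, by 2.84 ± 0.18, and they fell by 0.70 ± 0.13 and 1.42 ± 0.17. Rbpj rose by 1.18 ± 0.12 and fell by 0.86 ± 0.12. Id3, needed for Kupffer cell development in mice, had 36.7, 37.5 and 28.8 CPM in the 3 groups (0.03 ± 0.11 with injury, edgeR adjusted p = 0.834) and fell by 0.38 ± 0.12 with WZB. Nr1h3, the gene of LXR-alpha, which hepatocytes also express, rose by 0.27 ± 0.10 and changed by -0.07 ± 0.10 with WZB (edgeR adjusted p = 0.647).

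Of 10 tested genes of a list of CSF1R ligands and niche ligands and receptors 8 rose and none fell with injury, and 5 fell and 1 rose with WZB (medians 1.78 and -0.54). Csf1 rose from 15.1 to 103 CPM (2.78 ± 0.10) and fell by 0.69 ± 0.09. Il34 rose by 2.89 ± 0.39 from low and uneven counts of 19, 4 and 30 in Ctrl. It had 7.52 CPM in D-gal-LPS and 6.93 with WZB (-0.12 ± 0.33, edgeR adjusted p = 0.824). Bmp10, a circulating ligand of the receptor ALK1, had 1.62 ± 0.727, 26.5 ± 2.61 and 9.34 ± 3.09 CPM (SD, n = 3) and was called in both steps, while its relative Gdf2 rose by 1.49 ± 0.19 with no called change by WZB (0.20 ± 0.18). Dll4, a Notch ligand of sinusoidal endothelium, had no called change with injury (-0.02 ± 0.30) and rose by 1.03 ± 0.29 with WZB. Csf2, another myeloid growth factor, had at most 4 counts in a library and was not tested.

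Genes around the members' functions give the setting. In the list of haem and haemoglobin handling, Hmox1, which degrades haem, rose by 2.20 ± 0.09 and fell by 1.04 ± 0.09 with WZB. Il10, a cytokine known to induce CD163 in macrophages, had 1, 1 and 0 counts in Ctrl, 149, 137 and 135 in D-gal-LPS and 32, 29 and 60 with WZB. In that list 5 genes rose and 4 fell with injury, and 2 rose and 5 fell with WZB (medians 0.68 and -0.56). Of 8 LXR partners and targets 3 rose and 4 fell with injury and 1 rose and 3 fell with WZB (medians -0.20 and -0.19). The lipid exporter Abcg1 rose by 2.92 ± 0.19, and Rxra, the partner of LXR, fell by 1.83 ± 0.09. Among 10 tested genes for uptake of dying cells 6 rose and 1 fell, then 2 rose and 4 fell with WZB (medians 0.57 and -0.23). The receptor kinase Axl rose by 3.33 ± 0.12 and fell by 1.24 ± 0.11, while Mertk, its relative on resident macrophages, had 20.5 CPM in Ctrl and 21.8 in D-gal-LPS (0.09 ± 0.11, edgeR adjusted p = 0.504) and fell by 0.48 ± 0.11 with WZB. Of 11 other scavenger receptors 9 rose and 2 fell, then 3 rose and 4 fell (medians 0.88 and -0.14). Msr1, a class A scavenger receptor like Marco, rose by 3.50 ± 0.15 and fell by 0.63 ± 0.13.

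Lists of markers of other macrophages, blood cells and endothelium differed in how many of their genes rose. Of 12 macrophage markers 11 rose with injury and 10 fell with WZB (medians 2.11 and -0.89), among them C1qb (2.16 ± 0.15, then -1.11 ± 0.14). Their sum was 146 to 175 CPM in Ctrl, 600 to 638 in D-gal-LPS and 302 to 402 with WZB. All 11 tested monocyte markers rose with injury and 6 fell with WZB (medians 4.38 and -0.61). Cx3cr1, the marker of that list too scarce to test, did not rise. It had 5, 22 and 13 counts in Ctrl, 0, 2 and 6 in D-gal-LPS and 3, 3 and 10 with WZB. Cd14, the endotoxin co-receptor, rose from 3.02 to 71.6 CPM and fell to 35.7 with WZB. All 10 tested neutrophil markers rose (median 6.38, or 6.15 with Ltf at its lower bound) and 6 fell with WZB (median -0.70). Of 10 sinusoidal endothelial markers 8 rose and 1 fell, then 5 fell and 1 rose (medians 1.41 and -0.39). All 7 tested red blood cell transcripts rose (median 5.82, or 5.81 with Slc4a1 at its bound) and 6 fell with WZB (median -3.18). Among lipid-associated macrophage markers 5 of 6 rose and 1 fell, and Lgals3 alone fell with WZB (medians 1.34 and -0.08). Of 5 tested peritoneal macrophage markers 2 rose and 2 fell with injury, then 1 rose and 2 fell (medians -0.39 and -0.42). Gata6, their defining factor, had 5.31 CPM in Ctrl and 4.03 in D-gal-LPS (edgeR adjusted p = 0.294). Lrg1 of that list had 18913, 17600 and 23500 counts in Ctrl, where Gata6 had 100, 93 and 80. Which liver cells made these transcripts was not tested, so the list is not read as a measure of peritoneal macrophages. Of 5 tested dendritic cell markers 2 rose and none was called with WZB (medians 0.26 and -0.06), and among 8 lymphocyte markers 4 rose, then 1 fell (medians 1.24 and -0.19). No listed marker was at 0 in all 9 libraries. How much of Adgre1, Csf1r, Marco and Folr2 came from entering monocytes was not tested.

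**Figure D4:**
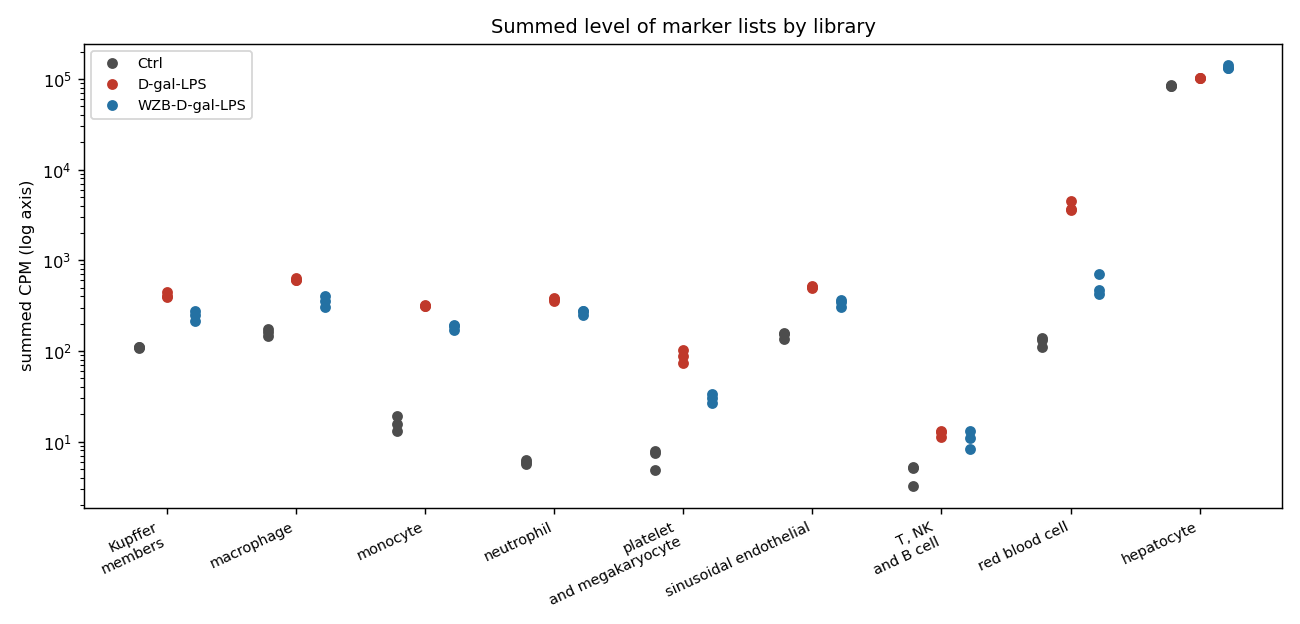
The summed TMM-scaled CPM of 9 marker lists is plotted for every library on a log axis. The sum of the 10 Kupffer genes goes from 107 to 111 CPM in Ctrl to 398 to 443 in D-gal-LPS and 211 to 279 with WZB. From Ctrl to D-gal-LPS this is a smaller step on the log axis than those of the monocyte, neutrophil, platelet and red blood cell lists.

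The genes whose log2 CPM followed the members' mean profile most closely over the 9 libraries were sought among 9217 others with a mean of at least 5 CPM. They were Znfx1, an antiviral RNA sensor (Pearson r = 0.997), Pak2, a kinase of the cytoskeleton (0.994), Ripk2, the kinase below NOD receptors (0.990), Gvin1, an interferon-inducible GTPase (0.990), and Srf, a transcription factor of the cytoskeleton (0.989). Znfx1 had 33.2 ± 1.58, 111 ± 4.61 and 46.8 ± 9.56 CPM in the 3 groups (SD, n = 3). In all, 166 genes had an r of at least 0.95, and the points share libraries, depth and the same 3 groups, so these are descriptions. Of the members themselves, 8 had an r of 0.892 to 0.964 with that mean, of which they are a part, Marco 0.776 and Cd163 0.209.

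Positions are from the deposited table on GRCm38. Clec4f lies at chromosome 6:83644542-83656187, Cd163 at 6:124304656-124330527 and Clec1b at 6:129397297-129409335. Timd4 lies at 11:46810800-46844332, Marco at 1:120474538-120505024, Folr2 at 7:101839990-101845331 and Vsig4 at X:96247203-96293438. Cd5l lies at 3:87357881-87371073, Adgre1 at 17:57358686-57483529 and Csf1r at 18:61105572-61132149. In GENCODE M21, Clec1b shares 184 exonic bases with Clec9a on the same strand, a dendritic cell gene with at most 84 counts in a library. Csf1r shares 873 exonic bases with Hmgxb3 on the opposite strand, which had at most 277 counts, and Folr2 shares 975 with the antisense gene Gm10602. These are counted over whole GENCODE models, which reach beyond the deposited positions for Folr2 (to 101857194) and Csf1r (from 61100598). How many of the shared bases lie inside the deposited positions was not computed. No source used here says whether libraries were stranded, so reads of Hmgxb3 and Gm10602 in the shared bases cannot be told apart from those of the members. For Clec9a, which lies on the strand of Clec1b, strand would not separate them in any case. The other 7 members overlap no annotated gene.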

How the data were processed

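Liver mRNA libraries were compared in 3 groups of 3. The authors deposited 1 table that holds, per gene and library, a raw read count and an FPKM value, which divides reads by transcript length and sequencing depth. Counts entered every test. FPKM values served only to rank genes. Per the submitters' processing notes, the builds named are GRCm38.p4 and mm10 and the tools include limma and R 4.1.2. The sources used here name no aligner, counter or strand setting. Of 21 value columns, 3 bear a name that no label matches and were not used here. All rows named a gene, and no 2 libraries were identical.

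Genes were kept by filterByExpr of edgeR 4.0.16 under R 4.3.3, which left 13583 genes with 99.93% of the reads. One robust quasi-likelihood model of group, with TMM factors, was fitted to the 9 libraries (6 residual degrees of freedom). Benjamini-Hochberg adjusted p values cover the tested genes and were called under 0.05. The script was tested on simulated data. The SE is the log2 fold change over the root of its F statistic, and 95% intervals use the fit's degrees of freedom. Lists, 19 with 175 distinct genes, are described by counts and medians. A gene with no control counts is set at a bound of 3 counts over the control group. Genes named are the members, the genes of 3 lists close to Kupffer cells and, of each other list, the 3 with the smallest adjusted p in each of the first 2 comparisons. Single genes that fit no rule (Treml1, Csf2, Gata6, Ltf, Slc4a1, Cx3cr1, Clec9a, Hmgxb3 and Gm10602) were named after their values were seen. Members and lists were chosen with earlier results of these data known. Alternatives were other scalings, filters and tests (DESeq2 1.42.0, limma 3.58.1), a replicate block, and leaving out each library.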

Additional observations from a re-analysis of the deposited data

How the results depend on the processing

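The 9 rises with injury kept their direction and call under all 19 alternatives, except that Vsig4, Cd5l and Clec1b missed a test against a log2 fold change of 1 (adjusted p = 0.332, 0.0658 and 0.143). That stricter test called 2628 genes instead of 7931 with injury, 65 instead of 3874 with WZB and 2237 instead of 8236 for WZB against controls. It left 0 members lower with WZB and, against controls, 2 higher and 0 lower. In every other alternative 8 or 9 members were lower with WZB. Marco's difference by WZB was called under none of them (log2 -0.49 to -0.20). Near-zero values changed sign against controls. Clec4f was at -0.017 in a fit of the 2 groups, -0.201 with total-count scaling, -0.009 with a filter of 5 CPM in 3 libraries and from -0.025 to 0.139 in the fits without 1 library. Cd5l was at -0.034 with total-count scaling, and Vsig4 from -0.322 to 0.089 without 1 library, the highest without WZB-D-gal-LPS replicate 2. None of these was called, and the cause was not tested. Total-count scaling moved the median of all genes from -0.02 to -0.22 with WZB and from 0.07 to -0.18 against controls. The split of all genes higher and lower with WZB, 1873 and 2001, became 850 and 3290 with it and 2358 and 1643 with upper quartile factors. Against controls, 4430 and 3806 became 3248 and 5061. The replicate block left the members' counts at 9 higher with injury, 9 lower with WZB, and 6 higher and 1 lower against controls, and called 7756, 3658 and 8073 genes. Same-numbered libraries did not deviate together (correlations from -0.0818 to 0.0626), so the numbers were not taken as pairs. Counts of 19 to 40 for Cd163 with WZB and of 23 to 58 for Timd4 and Folr2 in controls limit their precision.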
